A study of Rattus norvegicus with 8 samples.

Results

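The S100 genes described here are S100a1, S100a4, S100a6, S100a8, S100a9, S100a10, S100a11, S100a13 and S100b, 9 of the 32623 rat genes in the count files, chosen by gene name. S100a4 encodes FSP-1 (fibroblast-specific protein 1), one of the proteins stained in the study's vessel sections, and it is compared with the myeloid members S100a8 and S100a9 and with the other members. RNA was measured in arteriovenous fistula (AVF) epigastric veins of 8 Sprague Dawley rats, 21 days after the vein was joined to the femoral artery. The BAPN group (n = 4, 3 females and 1 male) had a nanofiber scaffold loaded with BAPN (β-aminopropionitrile) wrapped around the vein, and the vehicle group (n = 4, 2 females and 2 males) had the same scaffold without the drug. BAPN blocks lysyl oxidases (LOX), the enzymes that crosslink collagen and elastin, and the study asked how LOX inhibition at the outer vessel wall changes AVF gene expression. Each library is from 1 rat, and the animals' ages were not given in the sources used here. No genotype was altered and no cells were sorted, so that each value is a sum over all cell types of the vein wall and over what infiltrated it.

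S100 proteins are small calcium-binding proteins with paired EF-hand loops that mostly work as dimers. On binding calcium they expose a surface that grips a target protein, and inside the cell they act on the cytoskeleton, membranes and annexins. Several are also secreted: the S100a8 and S100a9 proteins form calprotectin, an abundant product of neutrophils and monocytes that signals through TLR4 and RAGE (the receptor encoded by Ager). S100a4 protein binds non-muscle myosin and is used as a marker of fibroblasts, although macrophages and lymphocytes also make it.

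Most S100 genes lie side by side. In the RefSeq table of the rat assembly GRCr8, S100a1, S100a13, S100a4, S100a6, S100a8 and S100a9 stand in that order on chromosome 2, with S100a11 and S100a10 further along it, and S100b stands alone on chromosome 20. The 250 bases before the annotated gene start are shown for S100a4 and S100a6, which lie close together with S100a5 between them and whose mRNAs were both higher with BAPN, and for S100a9, which is near them and whose groups overlapped. The sequences are on GRCr8 at chr2:178388279-178388528 (plus strand), chr2:178398287-178398536 (plus strand) and chr2:178490623-178490872 (minus strand), each written 5′ to 3′ along the gene's own strand. Capitals mark matches to the motifs searched.
S100a4: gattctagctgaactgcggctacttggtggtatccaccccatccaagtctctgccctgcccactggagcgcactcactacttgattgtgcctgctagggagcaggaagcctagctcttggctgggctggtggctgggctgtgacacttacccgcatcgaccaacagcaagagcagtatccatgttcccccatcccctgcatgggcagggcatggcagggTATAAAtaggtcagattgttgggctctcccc
S100a6: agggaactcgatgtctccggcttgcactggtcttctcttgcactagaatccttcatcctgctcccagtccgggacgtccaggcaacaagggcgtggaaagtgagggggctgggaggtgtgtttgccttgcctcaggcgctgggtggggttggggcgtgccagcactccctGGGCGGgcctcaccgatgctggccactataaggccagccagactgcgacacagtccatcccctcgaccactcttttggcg
S100a9: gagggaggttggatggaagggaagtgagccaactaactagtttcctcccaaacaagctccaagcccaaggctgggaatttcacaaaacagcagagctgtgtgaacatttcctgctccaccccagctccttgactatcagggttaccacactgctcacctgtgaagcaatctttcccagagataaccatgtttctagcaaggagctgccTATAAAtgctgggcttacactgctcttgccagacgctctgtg

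The S100a4 window held a TATAAA, the core of a common promoter motif, that began 31 bases before the gene start, and the S100a9 window held one that began 42 bases before it. The S100a6 window held no TATAAA and held a GGGCGG (GC box letters) 80 bases before the start. RefSeq windows were matched for 6 of the 9 members (S100a4, S100a6, S100a9, S100a11, S100a13 and S100b). Searched on both strands, TATAAA was in 2 of these 6 and in 12.9% of all 33469 windows of the same length, GGGCGG in 3 of 6 and in 30.5%, CCAAT in 2 of 6 and in 34%, and TGANTCA, the AP-1 letters, in 0 of 6 and in 6.34%. The matches describe letters only.

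The deposited values are counts of reads per gene, and total counts ran from 45039451 to 52241007 in the BAPN libraries and from 19548203 to 22442050 in the vehicle libraries. Since these totals do not overlap, any effect of how the 2 sets of libraries were made or read and the effect of the drug cannot be told apart. Levels are given as TMM-scaled CPM (counts scaled to a common library total), differences as log2 fold changes of BAPN against vehicle from edgeR's quasi-likelihood test with their SE from limma-voom, and FDR is the Benjamini-Hochberg value over the 11682 genes whose base mean, the mean scaled count of all libraries, reached 100. In this vein wall the macrophage gene Lyz2 and the collagens Col1a1 and Col3a1 were the leading markers of their lists, the summed macrophage and monocyte markers did not overlap between groups (38047 to 55432 CPM with BAPN, 9265 to 33877 with vehicle) although without Lyz2 they did (11618 to 20459 CPM and 5404 to 14394 CPM), and 7 of 11 tested smooth muscle markers were lower with BAPN (3 to 9 when each library was left out, 0 in the females alone). Of 73 tested cytosolic ribosomal protein genes, a list of genes with short mRNAs added after the data were seen, 35 were higher and 1 was lower (median log2 fold change 0.58). The part of macrophage content or of short mRNAs in the S100 results was not tested. In bulk tissue fewer cells of a type and less RNA per cell cannot be told apart.

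Among the 9 S100 genes, 8 reached the base mean minimum and 3 of these were higher with BAPN at an FDR below 0.05: S100a4, S100a6 and S100a10. None was lower by edgeR or DESeq2, or at an unadjusted edgeR p under 0.05. Over all tested genes 7.5% were called higher, 9.25% lower and 16.8% in either direction. The groups did not overlap for 4 of the 8 tested members, all higher with BAPN. Over all tested genes 24.7% did not overlap, 12.7% being higher and 11.9% lower. The median log2 fold change of the 8 was 0.43, against 0.02 over all genes. S100a8 was below the minimum and was not in that test.

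**Figure D1:**
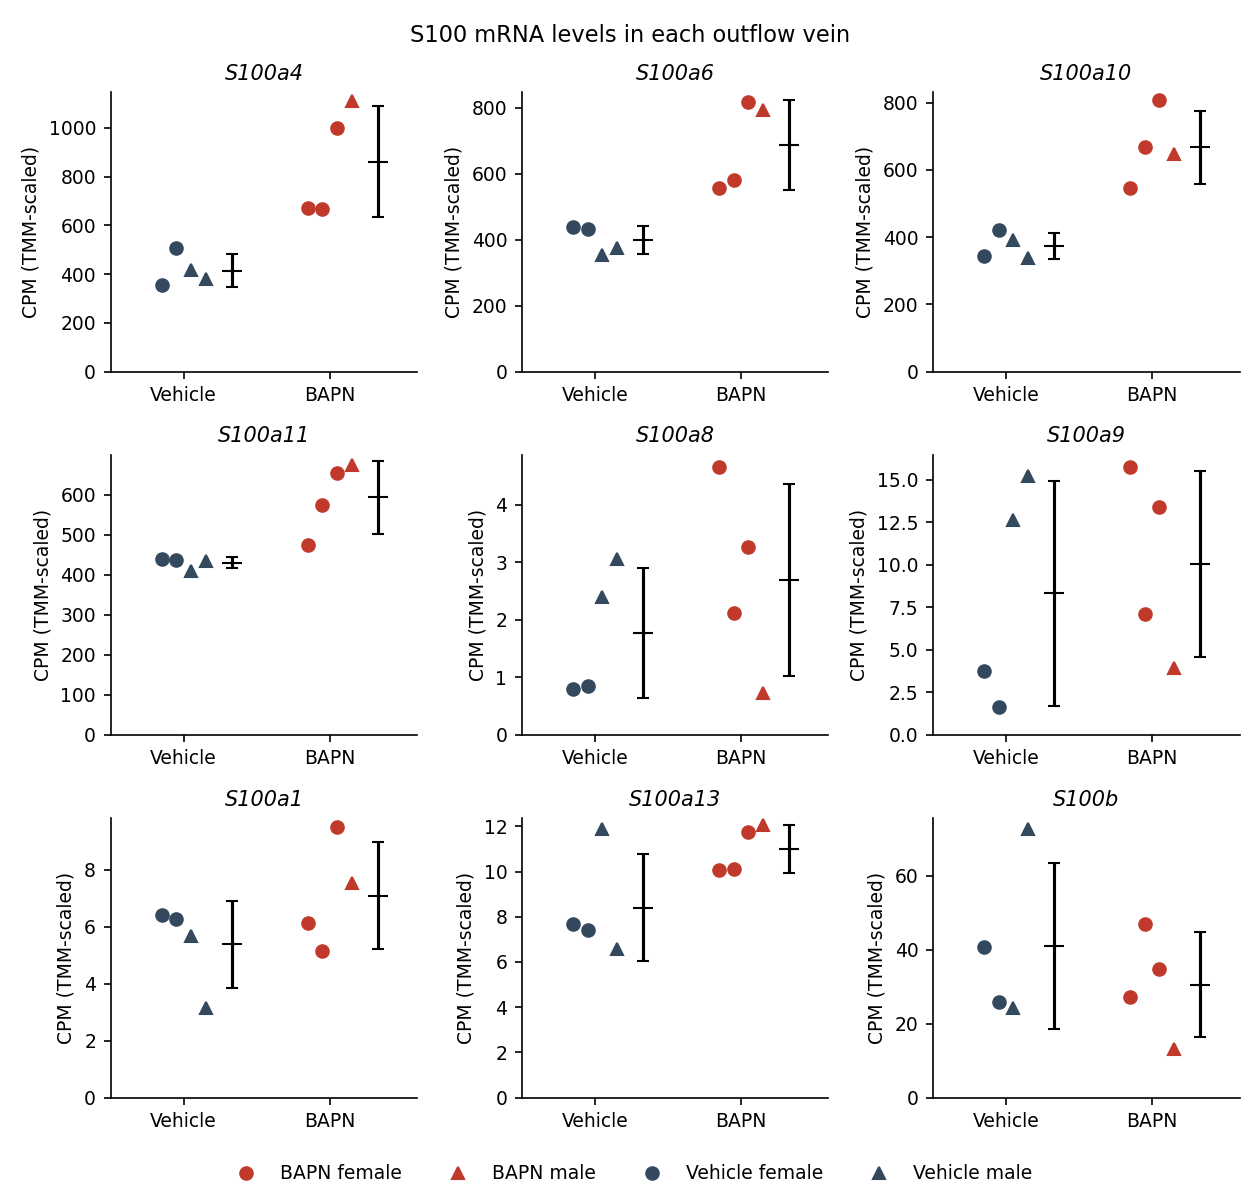
Each panel plots 1 S100 mRNA in TMM-scaled CPM (linear axis from 0) against group, with 1 point per rat, circles for females and triangles for males, and a bar for the mean ± SD of 4 rats. The BAPN points lie above all vehicle points for S100a4, S100a6, S100a10 and S100a11, and the points of the other 5 members overlap.

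S100a4 mRNA had the largest fold change of the 8 tested members, at 2.08-fold with BAPN. Its levels were 669, 665.9, 997 and 1108 CPM in BAPN 1 to 4 and 356, 508, 415 and 379 CPM in Vehicle 1 to 4. Every BAPN vein was above every vehicle vein, with BAPN 3 and the male BAPN 4 the highest and Vehicle 2 the nearest of the vehicle group. BAPN 3 and BAPN 4 also had the largest shares of counts on mitochondrial genes, 7.80% and 6.89% against 4.46% to 5.41% in the other 6 libraries, and the part of this in the S100a4 and S100a6 levels was not tested. The BAPN mean was 860 ± 227 CPM and the vehicle mean 414 ± 67.0 CPM (SD, n = 4 each), and the log2 fold change was 1.05 (SE 0.20, 95% interval 0.60 to 1.51, edgeR FDR 0.017). The exact two-sided permutation test gave p = 0.0286, the smallest value that the 70 arrangements of 4 against 4 allow. Without Vehicle 1 the log2 fold change was 0.99 and the FDR 0.0573, and within the females it was 0.85 (FDR 0.132). The FSP-1 protein itself was not analysed here. The paper reported significantly less FSP-1 staining with BAPN at the same time point, in sections from other rats. The S100a4 mRNA thus went in the opposite direction to the stain. Why the mRNA and the stain differed was not tested.

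S100a6 encodes calcyclin, a dimer that binds annexins and the calcyclin-binding protein encoded by Cacybp. Its mRNA was at 558, 582, 818 and 794 CPM in BAPN 1 to 4 and at 437, 434, 353 and 374 CPM in Vehicle 1 to 4. The groups did not overlap, and the same libraries, BAPN 3 and 4, were highest as for S100a4. The mean was 688 ± 137 CPM against 400 ± 42.4 CPM, 1.72-fold (log2 fold change 0.78, SE 0.16, FDR 0.0215). This call was the least stable of the 3, since leaving out BAPN 3, BAPN 4, Vehicle 1 or Vehicle 3 each raised the FDR above 0.05, to between 0.0508 and 0.056. Within the females the log2 fold change was 0.58 (FDR 0.175).

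S100a10, known as p11, is the family member that does not need calcium, and it pairs with annexin A2 in a complex at the cell surface that binds plasminogen. Its mRNA was at 545, 668, 808 and 647 CPM in BAPN 1 to 4 and at 344.6, 420, 392.5 and 338 CPM in Vehicle 1 to 4. The lowest BAPN library exceeded the highest vehicle library. The mean was 667 ± 108 CPM against 374 ± 39.4 CPM, 1.78-fold (log2 fold change 0.83, SE 0.15, FDR 0.0149). Without Vehicle 1 the log2 fold change was 0.80 and the FDR 0.0527, and within the females it was 0.82 (FDR 0.108).

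S100a11, which binds annexin A1, was at 473, 575, 654 and 675 CPM in BAPN 1 to 4 and at 439, 437, 410 and 433 CPM in Vehicle 1 to 4. The vehicle veins lay close together and BAPN 1 was only slightly above them. The mean was 594 ± 91.4 CPM against 430 ± 13.5 CPM, 1.38-fold (log2 fold change 0.47, SE 0.14), and the FDR of 0.0545 did not pass the threshold. DESeq2 gave 0.45 with an FDR of 0.00601 and upper-quartile scaling in edgeR gave an FDR of 0.0494, so that this call depended on the method, and without BAPN 1 it passed in edgeR (0.56, FDR 0.0405). DESeq2 called 4 of the 8 members, all higher, where it called 27.4% of all tested genes, 12.3% higher and 15.1% lower. RefSeq lists 7 further genes or pseudogenes named after S100a11 and 1 after S100a10, and how the counting treated reads shared with such copies is not given in the sources used here, so the levels of both are uncertain to that extent.

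The binding partners and receptors form a list of 13 genes, of which 11 were tested. In edgeR 3 were higher with BAPN and 0 were lower (median log2 fold change 0.08), and 1 to 4 were called when each library was left out. DESeq2 called 5, of which Ager was lower. Anxa2, which encodes the annexin bound by S100a10, was at 1157, 1203, 1508 and 1419 CPM in BAPN 1 to 4 and at 874, 868, 669 and 779 CPM in Vehicle 1 to 4. Its groups did not overlap, and the mean of 1322 ± 169 CPM stood against 798 ± 95.8 CPM (log2 fold change 0.73, SE 0.16, FDR 0.0218). Cacybp, whose product binds calcyclin, was at 64.1, 77.0, 70.8 and 70.3 CPM with BAPN and at 44.1, 47.3, 44.4 and 47.8 CPM with vehicle (log2 fold change 0.62, SE 0.10, FDR 0.0089). Sugt1, a co-chaperone that also binds S100a6 protein, was at 39.9, 44.6, 51.1 and 43.4 CPM with BAPN and at 33.5, 30.8, 33.2 and 34.5 CPM with vehicle (log2 fold change 0.44, SE 0.11, FDR 0.0283). For Cacybp and Sugt1, too, all BAPN veins were above all vehicle veins. The S100a11 partner Anxa1 had means of 715 ± 106 and 485 ± 73.7 CPM (log2 fold change 0.56, SE 0.17, FDR 0.0508) and did not pass in edgeR, while DESeq2 gave an FDR of 0.00771.

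The other annexins and scaffold proteins that bind S100 dimers did not pass the test. The log2 fold change was 0.00 for Anxa6, 0.09 for Anxa11 and 0.00 for Ahnak, a giant protein held at the membrane by the S100a10 and annexin A2 complex. Fgf1, a growth factor released together with S100a13, had a log2 fold change of -0.35 (FDR 0.347). Myh9, the non-muscle myosin heavy chain bound by S100a4, is known to be widely expressed, and its row held 0.77 and 1.11 CPM in the group means, so that the row may not hold the main gene model and says little of the gene's level. Like Il1a, it was below the base mean minimum.

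**Figure D2:**
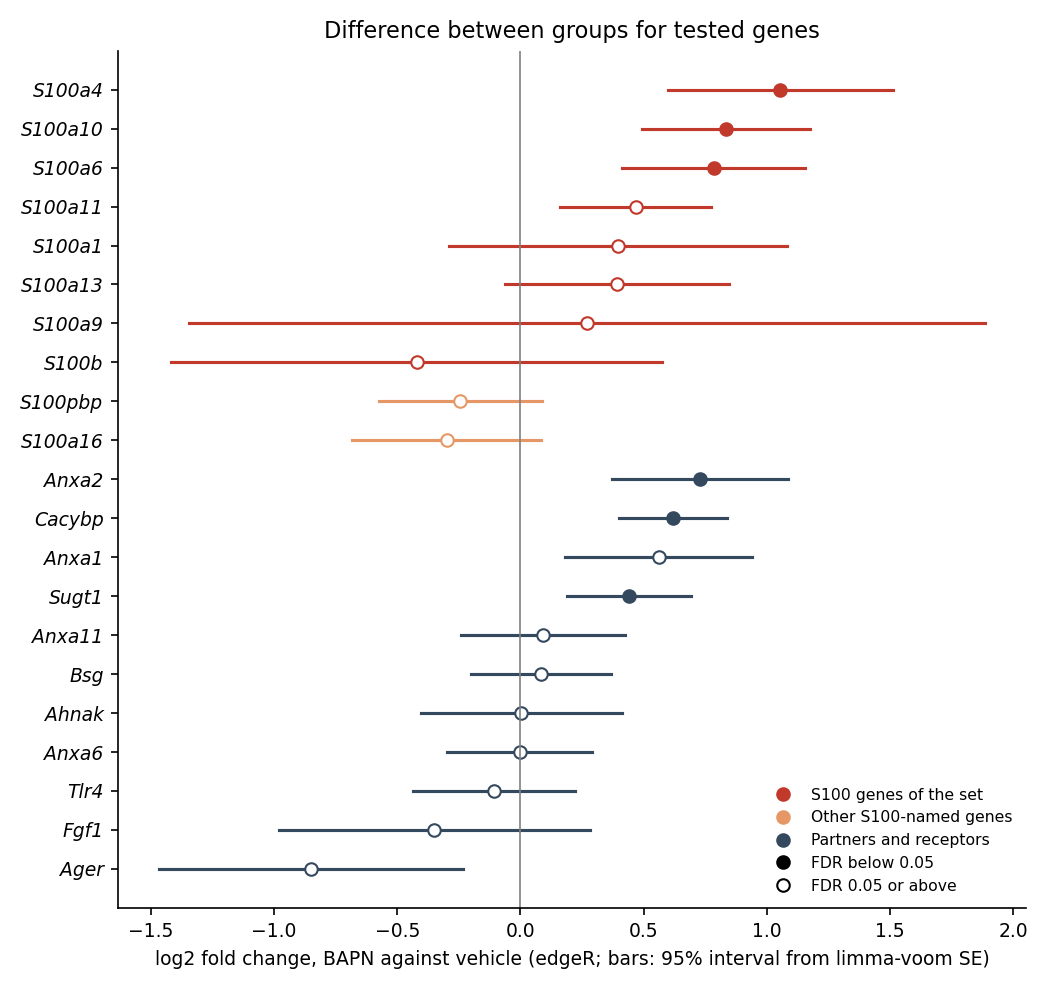
Points give the edgeR log2 fold change of BAPN against vehicle (horizontal axis, log2 scale) for 8 S100 genes of the set, 2 other S100-named genes and 11 partners and receptors, with bars for the 95% interval from the limma-voom SE, filled where the FDR is below 0.05. S100a4, S100a10 and S100a6 and the partners Anxa2, Cacybp and Sugt1 are filled and lie right of 0, while the intervals of S100a9 and S100b span 0 widely.

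The calprotectin genes S100a8 and S100a9 overlapped between the groups. S100a8 had few reads, 17 to 225 counts per library, and was at 4.67, 2.11, 3.28 and 0.73 CPM in BAPN 1 to 4 and at 0.80, 0.84, 2.40 and 3.06 CPM in Vehicle 1 to 4. The groups overlapped fully, with the male BAPN 4 the lowest of all (2.70 ± 1.68 against 1.77 ± 1.14 CPM, exact two-sided permutation test of log2 CPM, p = 0.543). S100a9 was at 15.7, 7.10, 13.4 and 3.92 CPM in BAPN 1 to 4 and at 3.75, 1.63, 12.6 and 15.2 CPM in Vehicle 1 to 4. Again both groups held high and low veins, and the log2 fold change of 0.27 (SE 0.72, FDR 0.791) had a 95% interval from -1.34 to 1.89. With sex as a covariate it was 0.99 (FDR 0.483). An edgeR fit with a looser filter that admits S100a8 gave it 0.62 (FDR 0.523). A change of S100a9 as large as that of S100a4 lies within its interval.

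Split by sex, the calprotectin pair lay in opposite orders. For S100a9 the 3 BAPN females (7.10 to 15.7 CPM) were above both vehicle females (1.63 and 3.75 CPM), whereas the BAPN male (3.92 CPM) was below both vehicle males (12.6 and 15.2 CPM). For S100a8 the BAPN females (2.11 to 4.67 CPM) were above the vehicle females (0.80 and 0.84 CPM) and the BAPN male (0.73 CPM) was below the vehicle males (2.40 and 3.06 CPM). The male side rests on 1 BAPN rat. In an interaction model of treatment by sex chosen after seeing these values, the S100a9 difference was -3.99 on the log2 scale and did not pass (edgeR FDR 0.182).

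**Figure D3:**
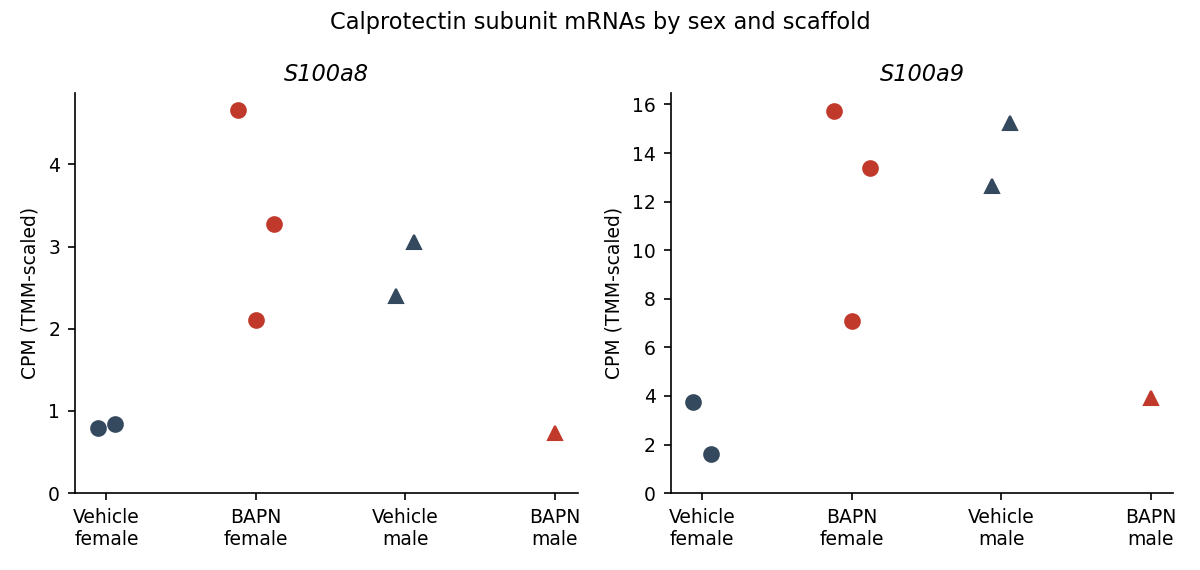
The panels plot S100a8 (left) and S100a9 (right) in TMM-scaled CPM against sex and scaffold, 1 point per rat with no error bars, since a single male had BAPN. BAPN females lie above vehicle females and the BAPN male below both vehicle males, in both panels.

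The receptors of the secreted proteins were measured beside them. Ager was at 3.63, 2.70, 3.62 and 2.50 CPM with BAPN and at 5.29, 3.81, 5.47 and 7.88 CPM with vehicle. Every vehicle vein was higher, although the difference did not pass in edgeR (log2 fold change -0.85, SE 0.27, FDR 0.0638), while DESeq2 gave an FDR of 0.0143. Tlr4 (28.5 ± 4.18 against 30.7 ± 4.33 CPM, log2 fold change -0.11) and Bsg, which encodes a further S100a9 receptor called basigin (418 ± 46.8 against 394 ± 27.9 CPM, 0.08), overlapped between groups.

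Markers of the cells that make calprotectin are given beside it. Of 20 neutrophil markers 8 were tested, with a median log2 fold change of 0.81 (0.48 without BAPN 1). The summed level of all 20 ran from 274 to 754 CPM with BAPN and from 116 to 427 CPM with vehicle. In edgeR 2 of the 8 were higher and 0 were lower. The 2 were Trem1, a receptor of neutrophils and monocytes that was at 25.4 to 35.1 CPM against 7.40 to 21.5 CPM (log2 fold change 1.23, SE 0.28, FDR 0.0276), and Mcemp1 (1.79, SE 0.50, FDR 0.0353). The leading markers were Mmp9 (1.04, FDR 0.315), which macrophages also express, and Csf3r, the G-CSF receptor (0.25, FDR 0.637). Lcn2, a granule gene that other cells can also express, was at 30.5 ± 33.4 against 8.79 ± 2.39 CPM (1.80, FDR 0.0918). Ceacam1 alone of the 8 had a lower value (-0.53, FDR 0.0657), with groups that did not overlap, and DESeq2 called it (FDR 0.0263) beside Trem1 and Mcemp1. The granule genes Mpo, Mmp8, Ltf and Camp had counts in all 8 libraries at group means of 0.45 to 1.77 CPM, and Elane, Prtn3, Ngp and Cd177 were at 0 counts in 4, 7, 6 and 7 of the 8 libraries. Cxcr1, also below the minimum, was at 3.14 against 0.85 CPM with groups that did not overlap, while those of Cxcr2 (2.19 against 2.46 CPM) overlapped. With the looser filter, and with no filter, edgeR called 3 neutrophil markers. Of 19 tested macrophage and monocyte markers 2 were higher, Fcgr1a (0.80, SE 0.25, FDR 0.0474) and Aif1 (0.80, SE 0.16, FDR 0.0155), and 0 were lower. DESeq2 called 4. The median was 0.56 (0.36 without Vehicle 4 and 0.30 in the females alone). Over all tested genes edgeR called 7.5% higher and 9.25% lower, and DESeq2 called 27.4% in either direction.

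Lyz2, the lysozyme of macrophages, was at 24109, 29087, 38028 and 34973 CPM in BAPN 1 to 4 and at 12845, 19484, 15642 and 3861 CPM in Vehicle 1 to 4. Its groups did not overlap, and its log2 fold change of 1.28 (SE 0.49) did not pass in edgeR (FDR 0.0722) and passed in DESeq2 (FDR 0.00765). The 2 BAPN libraries with the highest summed macrophage and monocyte markers, BAPN 3 at 51922 and BAPN 4 at 55432 CPM, were those with the most S100a4. Lyz2 made up most of these sums, and without it BAPN 3, at 13895 CPM, lay below BAPN 1 at 13938 and Vehicle 2 at 14394 CPM, and BAPN 4 was highest at 20459 CPM. In the vehicle group Vehicle 2 had both the highest sum, 33877 CPM, and the most S100a4, 508 CPM. The lowest sum, 9265 CPM in Vehicle 4, stood beside 379 CPM of S100a4, while Vehicle 1 had 24512 CPM of the sum and 356 CPM of S100a4. The T cell markers, from cells that also make S100a4, had 2 of 9 tested genes higher, Cd8a (1.33, FDR 0.0281) and Cd2 (1.38, FDR 0.0138), a median of 1.02, and 8 of the 9 with a higher fitted value. DESeq2 called 5 of the 9, and 0 were called in the females alone. Their summed level, mostly Cd4 (-0.069, FDR 0.811), overlapped between groups. Their part in the S100a4 result was not tested.

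**Figure D4:**
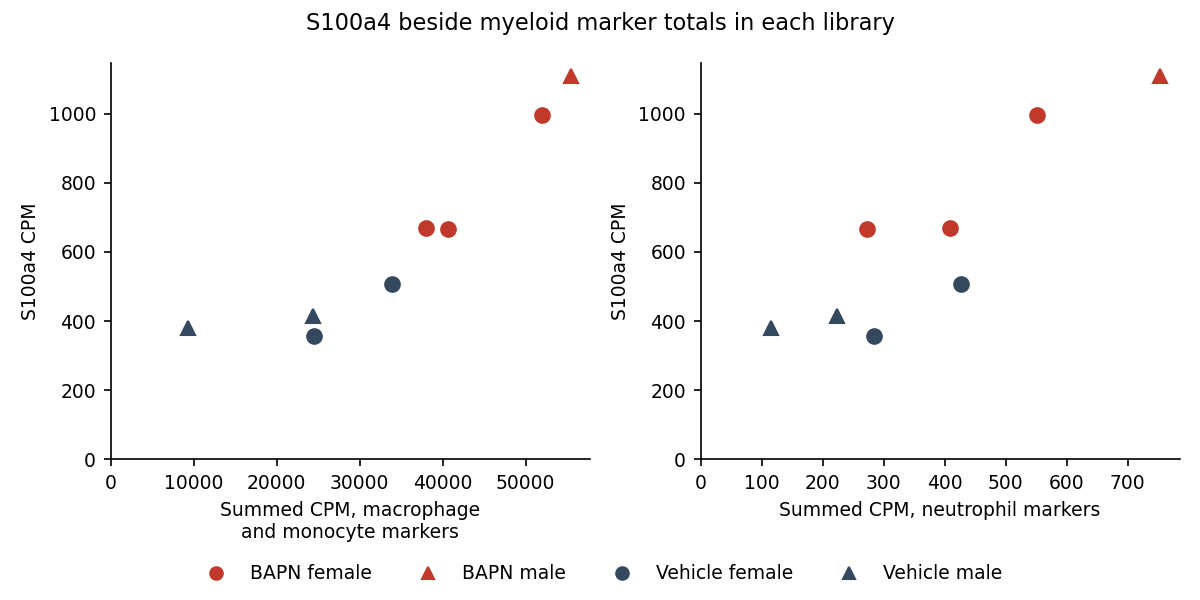
S100a4 in CPM (vertical axis) is plotted against the summed CPM of macrophage and monocyte markers (left) and of neutrophil markers (right), 1 point per library, circles for females and triangles for males. BAPN 3 and BAPN 4 are highest on both axes of the left panel. Lyz2 is the larger part of each sum there except in Vehicle 4 (3861 of 9265 CPM). The vehicle veins lie between 356 and 508 CPM of S100a4 over a wide range of marker sums.

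Fibroblast markers are given beside FSP-1. Of 15 tested fibroblast markers 1 was higher, Vim (log2 fold change 0.56, FDR 0.0474), which encodes the intermediate filament vimentin of many cell types, 1 was lower, Cd34 (-0.95, FDR 0.0349), and the median was -0.30 (-0.12 without Vehicle 4). DESeq2 called 7 of the 15, and the edgeR count was 0 in the females alone and ran from 0 (without BAPN 3, BAPN 4, Vehicle 1, Vehicle 3 or Vehicle 4) to 5 (without Vehicle 2). The most abundant, Col1a1 and Col3a1, had log2 fold changes of -1.002 (FDR 0.118) and -0.84 (FDR 0.119), where DESeq2 gave FDRs of 0.0278 and 0.0273, and Fn1, fibronectin, had -0.06 (FDR 0.905). The summed level ran from 41041 to 58040 CPM with BAPN and from 44845 to 119729 CPM with vehicle.

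S100a1 is best known from heart and skeletal muscle, where it binds calcium-handling proteins. It was at 6.14, 5.17, 9.50 and 7.53 CPM in BAPN 1 to 4 and at 6.41, 6.28, 5.68 and 3.15 CPM in Vehicle 1 to 4, with overlapping groups (log2 fold change 0.40, SE 0.30, 95% interval -0.29 to 1.08, FDR 0.345, and 0.21 without Vehicle 4). Skeletal muscle markers were low, with 2 tested and 0 called in edgeR (Tnnt3 at 19.2 ± 6.29 against 18.1 ± 4.42 CPM and Acta1 at 2.28 ± 1.14 against 12.98 ± 15.4 CPM). DESeq2 called Acta1 lower (FDR 0.0441). S100a13, which helps release growth factors that lack a signal peptide, was at 10.1 to 12.1 CPM with BAPN and at 6.59 to 11.9 CPM with vehicle. Vehicle 3 alone overlapped the BAPN range (log2 fold change 0.39, SE 0.20, 95% interval -0.06 to 0.84, FDR 0.21), and without it the log2 fold change was 0.61 (FDR 0.0544).

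S100b, the family member of glia and Schwann cells that fat cells also make, was the only tested member with a lower fitted value. It was at 27.3, 47.0, 34.7 and 13.02 CPM in BAPN 1 to 4 and at 40.8, 25.9, 24.2 and 72.6 CPM in Vehicle 1 to 4. The spread within each group exceeded the difference (log2 fold change -0.42, SE 0.44, 95% interval -1.42 to 0.57, FDR 0.503), and without Vehicle 4 the log2 fold change was 0.011. Of 9 tested Schwann cell and nerve markers 0 were higher and 2 were lower, Scn7a (-0.99, FDR 0.0453) and Ngfr (FDR 0.0476), and without BAPN 2, BAPN 3, BAPN 4, Vehicle 1, Vehicle 3 or Vehicle 4 there were 0 calls. Of the 9 tested adipocyte markers 0 were higher and 1 was lower, Plin1 (-2.13, FDR 0.0443), which coats fat droplets, while DESeq2 called 6 and the edgeR count ran from 0 to 3 when each library was left out. The endothelial list had 4 of 10 lower, Vwf, Tek, Cldn5 and Nos3, and 1 to 5 when each library was left out. Vwf, made by endothelial cells, was at 58.5 to 102 CPM with BAPN and at 768, 269, 106 and 161 CPM in Vehicle 1 to 4, so that Vehicle 1 stood far above the rest. The keratinocyte list had 1 of 3 higher, Dsg3, at 19.2, 13.7, 0.30 and 0.083 CPM in BAPN 1 to 4 and at most 0.0988 CPM with vehicle. BAPN 1 and BAPN 2 alone carried it, and it was not called without either of them or without any of the vehicle libraries.

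The files name 9 further genes beginning with S100, of which 2 were tested and 0 were called by edgeR or DESeq2, or at an unadjusted edgeR p under 0.05. S100a16, a widely expressed member, was at 42.0 ± 6.85 against 51.7 ± 9.47 CPM (log2 fold change -0.30, SE 0.17, FDR 0.229), and S100pbp, which encodes an S100-binding protein and is not itself an S100, was at 15.2 ± 1.96 against 17.9 ± 1.79 CPM (-0.24, SE 0.15, FDR 0.254). S100a3, S100a5 and S100a7a were below the minimum, and S100a7l2, S100z, S100vp and S100g had 0 counts in all 8 libraries.

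To ask whether S100a4 changed by more than each other member, the log2 ratio of S100a4 to that member was taken within each library and compared between groups. The ratio to S100a6 was 0.26 higher with BAPN (SE 0.14, exact permutation p = 0.114) and the ratio to S100a10 was 0.20 higher (SE 0.17, p = 0.314 in the same exact test). The ratio to S100a11 was 0.58 higher (SE 0.16, exact permutation p = 0.0571), with the groups overlapping. Against the calprotectin genes the change of the ratio was 0.48 for S100a8 (SE 0.87) and 0.46 for S100a9 (SE 1.00), both at p = 0.657 in the exact permutation test. Against S100a1, S100a13 and S100b it was 0.62 (SE 0.25), 0.61 (SE 0.24) and 1.45 (SE 0.70), each at p = 0.0857 in the exact permutation test. No ratio passed, the smallest of the 8 Benjamini-Hochberg values being 0.171. With a smallest possible p of 0.0286, at least 5 of the 8 ratios would have had to separate the groups fully for any to pass, so the test says little, and S100a4 was not shown to change more than any other member, nor to change like them.

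Over the 8 libraries the log2 CPM of S100a4 ran along with S100a6 (Pearson r 0.95), S100a10 (0.93) and S100a11 (0.93), and after the group means were taken out r was 0.78, 0.65 and 0.73. S100a8 and S100a9 ran together (r 0.91 in both forms), while r was 0.04 for S100a4 with S100a8 and 0.024 for S100a4 with S100a9 (-0.49 and -0.45 after the group means were taken out). Among all tested genes with a symbol, the log2 CPM most like S100a4 were those of Nmt1, Cnot8, Nsun6, Dbi and Arpc3 (r 0.99 each), and among those most like S100a8 were Bysl (0.93), Hnrnpa1 (0.92), Slc10a7 (0.92) and S100a9 (0.91). All these values come from the same 8 libraries, whose depth differed by group, and are given as description.

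**Figure D5:**
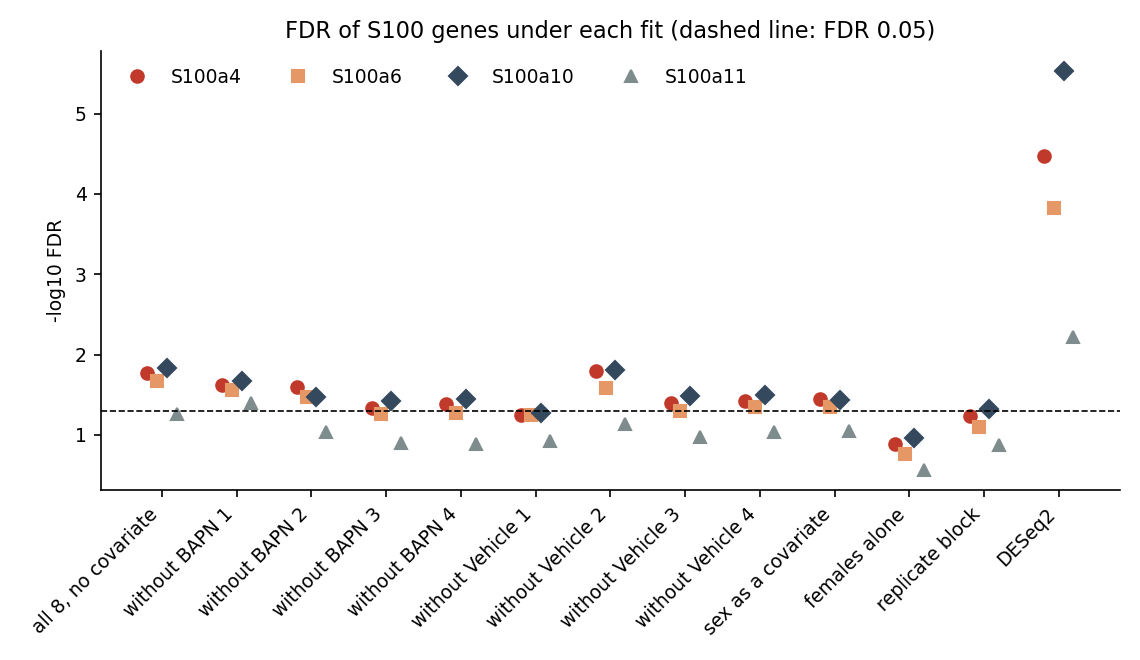
The vertical axis gives -log10 of the FDR for S100a4, S100a6, S100a10 and S100a11 under each fit named on the horizontal axis, and the dashed line marks an FDR of 0.05. All 4 genes fall below the line without Vehicle 1 and in the females alone, and all 4 lie above it with DESeq2.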

How the data were processed

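Total RNA of RNAlater-preserved veins was isolated with Trizol, treated with DNase and depleted of ribosomal RNA, and stranded libraries were sequenced on a NextSeq500. The submitters' processing notes name bcl2fastq 2.17, Trim Galore and STAR. The counter, its strand setting and the genome build are not given in the sources used here. The authors deposited 1 file per rat of raw read counts by gene, not normalized, and these counts were used unchanged. Groups, replicate numbers and sexes came from the labels.

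The test covered the 11682 of 32623 genes with base means of 100 or more (DESeq2 1.42.0 size factors), holding 99.5% to 99.66% of the counts of each library, and were compared by edgeR 4.0.16 (TMM, quasi-likelihood F test, no covariates, Benjamini-Hochberg adjustment over all tested genes, threshold 0.05) in R 4.3.3. SE came from limma 3.58.1 (voom). Log2 CPM used a prior count of 2, and exact permutation tests were two-sided over 70 arrangements. Nothing in the labels beyond the scaffold, the sex and the replicate number tells the rats apart, and replicates differed by far more than counting noise (chi-square over its degrees of freedom 68.6 or more for every pair). The steps were tested on simulated counts.

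All members, every tested gene of the partner list, other tested S100 names, the leading or defining genes of marker lists and the 5 genes most like S100a4 and S100a8 were to be named, and 2 of these are not reported here. Called genes of the marker lists, and Cxcr1 and Cxcr2, were added to these once their values had been seen. The members and lists were chosen with earlier results of these data known. Alternatives were other scalings, filters, DESeq2, a sex term, the females by themselves, a block for replicate number, thinned counts and each library left out, and the macrophage sum without Lyz2, which was added after seeing the data. Ccr2, Pecam1, Foxd3, Myh1, Trp63 and Trac were not analysed here. Promoter windows and gene order are from RefSeq tables of assembly GRCr8, which may not be the build of the files.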

Additional observations from a re-analysis of the deposited data

Results flagged for a closer look

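For S100a8 and S100a9 the BAPN females lay above the vehicle females, and the BAPN male lay below the vehicle males. The log2 CPM of S100a8 was 1.89 higher with BAPN than with vehicle in females and -1.81 in males, and that of S100a9 was 2.18 higher in females and -1.81 in males, with no overlap within either sex. In edgeR models of treatment by sex, chosen after these values were seen, the interaction was -3.90 for S100a8 (unadjusted p from the fit across all genes 0.00228, edgeR FDR 0.221) and -3.97 for S100a9 (FDR 0.184) among 14732 genes. None of these genes passed an FDR of 0.05 and 1729 had an unadjusted p under 0.05. The male difference is from 1 BAPN rat and 2 vehicle rats.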

How the results depend on the processing

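S100a4, S100a6, S100a10, S100a11, S100a1 and S100a13 kept a higher fitted value with BAPN under all 18 alternatives. DESeq2 size factors in edgeR, upper-quartile scaling, library totals alone, a looser filter, no filter and counts thinned to the lowest library total left S100a4, S100a6 and S100a10 called. DESeq2 called 3202 genes, 5 partners and S100a11 (0.45, FDR 0.00601), and upper-quartile scaling also called S100a11 (0.46, FDR 0.0494). With sex as a covariate 930 genes were called, among them the same 3 members. In females alone 89 genes, 0 members and 0 partners were called, with 0.85 for S100a4, 0.58 for S100a6 and 0.82 for S100a10. S100b turned to 0.12 there, and S100a9 was 2.16 (FDR 0.0895), against 0.27 with all 8 libraries. With the replicate number as a block 556 genes, 1 member and 1 partner were called, with 1.03 (FDR 0.0588) for S100a4, 0.77 (FDR 0.0806) for S100a6 and 0.61 (FDR 0.614) for S100a9. The numbers were not shown to pair the rats (correlations of same-numbered deviations -0.26 to 0.27). For 3 of the 8 libraries the best match in the other group was the one with the same number. The block is given for that reason only here.

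Leaving out each library in turn gave 397 (without Vehicle 1) to 2215 (without Vehicle 2) called genes, 0 (without Vehicle 1) to 4 (without BAPN 1) called members and 1 to 4 called partners. Without Vehicle 1, 0 neutrophil, 0 macrophage and 1 endothelial marker were called, and neutrophil calls were also 0 without BAPN 1 or BAPN 3. With sex as a covariate 3 smooth muscle, 0 Schwann cell and 4 adipocyte markers were called, and in females alone 0, 0 and 3. Schwann cell calls also fell to 0 with library totals alone, the looser filter, no filter and the block. The log2 fold change ranged from 0.90 to 1.17 for S100a4, 0.69 to 0.87 for S100a6, 0.73 to 0.92 for S100a10, 0.39 to 0.56 for S100a11, 0.21 to 0.51 for S100a1, 0.29 to 0.61 for S100a13, -0.071 (without Vehicle 2; -0.033 without BAPN 1) to 0.74 for S100a9 and -0.72 to 0.011 (without Vehicle 4) for S100b. The change in the ratio of S100a4 to S100a6 ranged from 0.15 to 0.32 and to S100a10 from 0.058 (without BAPN 4) to 0.32. That to S100a8 ranged from -0.17 (without BAPN 4) to 0.94, and that to S100a9 from -0.058 (without BAPN 4; -0.035 without Vehicle 4) to 1.17. Fits with fewer libraries have fewer degrees of freedom, and beyond that the cause was not tested. The planned offset for protein length was not run, since no protein table was used here. S100a8 had 17 to 225 counts per library.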
